A study of Mus musculus with 2 samples.

Results

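The TNF superfamily in mice was examined through every gene row whose name begins with Tnfsf or Tnfrsf and a digit. This rule found 32 genes among the 32285 in the tables, of which 20 name receptors and 12 name ligands or, in the case of Tnfsf13os, an RNA antisense to a ligand gene. The rule uses names and no measured value. RNA and open chromatin were read from the same nuclei in 2 libraries. One library came from Zfp362flox/flox mice and is called the control. The other came from CD4creZfp362flox/flox mice and is called the knockout; both kinds of mice carry the floxed allele of Zfp362, a zinc finger gene, and the knockout mice add a Cre recombinase named for CD4. The mice were 26 to 33 weeks old, cells of colon and small intestine were pooled, and nuclei were taken from cells sorted as CD4+CD44+CD62L- and negative for CD8a, CD11c, CD45R and F4/80. The series' text names 7 mice without saying how they were divided. Each genotype has 1 library, so differences between samples cannot be tested; intervals given with values are at the 95% level and cover counting error alone.

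Ligands of this superfamily are mostly membrane proteins that act as trimers, and their binding gathers receptors that signal through TRAF adaptors to NF-κB or, where the receptor has a death domain, can also lead to caspase activation. On T cells, several receptors (4-1BB, OX40, GITR, CD30, TNFR2) act as costimulators of activated cells, and regulatory T cells carry some of them constantly. Group 3 innate lymphoid cells of the gut are known for the ligand RANKL and for lymphotoxins, which act on stromal and epithelial cells and in lymphoid tissue.

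The control library had 4223 barcodes and 10803590 unique molecular identifiers (UMIs, each standing for 1 captured RNA molecule), and the knockout library had 2391 barcodes and 9348999 UMIs, with medians of 1996 and 2270 UMIs per barcode. After filtering, 4176 and 2346 nuclei remained, and 11 barcode sequences occurred in both libraries. Zfp362 itself gave 97 UMIs, or 8.99 per 1000000 UMIs (CPM; interval 7.29 to 11.0), in the kept control nuclei and 59 UMIs, or 6.32 CPM (4.81 to 8.15), in the knockout nuclei. In the 3 populations described next it gave 11 and 1 UMIs in Foxp3-positive nuclei (18.2 and 2.90 CPM), 37 and 14 in other Cd3-positive nuclei (10.3 and 7.35 CPM), and 9 and 2 in innate nuclei (7.97 and 2.97 CPM), and the intervals of the libraries overlapped in each. The deleted part of the gene is not given in the sources used here, so reads elsewhere in it check nothing.

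Nuclei were divided by genes outside the superfamily. Foxp3-positive nuclei had at least 1 UMI of Foxp3, the regulatory T cell factor, and at least 1 of Cd3d, Cd3e or Cd3g. They also had under 2 of the innate UMIs named next. There were 222 control and 102 knockout nuclei of this kind, of which 148 and 68 had exactly 1 Foxp3 UMI. Other Cd3-positive nuclei had no Foxp3 UMI and numbered 1589 and 718. Cd3-negative innate lymphoid nuclei had no Cd3 UMI and at least 2 UMIs of 7 innate genes (Kit, Ncr1, Arg1, Ddc, Cnr2, Klrb1b and Eya1), and numbered 538 and 309. The sort as listed above selected on CD4 and names no CD3. Of 8 innate lymphoid markers, 7 are the genes of the gate itself, and the other, Il1r1, gave 906 and 850 CPM in innate nuclei of control and knockout, against 32.9 and 39.4 in other Cd3-positive nuclei. Their Trac level was 33.7 and 60.9 CPM in control and knockout, against 663 and 595 in other Cd3-positive nuclei. Cd4 differed between the libraries: Foxp3-positive, other Cd3-positive and innate nuclei had 223, 281 and 297 CPM in the control and 785, 854 and 275 in the knockout, and its part in the library comparisons below was not tested. Foxp3 UMIs were seen in 3 of 538 and 3 of 309 innate nuclei, whose source was not tested.

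Both limits of this division bear on the comparisons below. Clusters of all nuclei, made with the superfamily left out of the variable genes, placed 293 of 324 Foxp3-positive nuclei in 3 clusters rich in Foxp3 UMIs. However, 617 of 2307 other Cd3-positive nuclei (26.7%) lay in those same clusters, so the nuclei without a Foxp3 UMI include many that resemble the Foxp3-positive ones. The rule that set aside nuclei with at least 2 UMIs of 13 other-lineage genes also took 23.8% of control and 32.7% of knockout nuclei, and 934 of 995 and 716 of 768 of them were removed by Zbtb46 and Pecam1 alone, which many T and innate nuclei carried. The loss was uneven. Over both libraries it took 684 nuclei of the innate clusters, where 746 remained in the innate population. From the 3 Foxp3-rich clusters it took 262, where 293 remained in the Foxp3-positive and 617 in the other Cd3-positive population. From the other T cell clusters it took 256, where 1625 remained in the other Cd3-positive population. The innate population is thus a part of the innate clusters chosen for few UMIs of these genes.

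Of the 32 genes, 24 had at least 20 UMIs over the 3 populations of both libraries and are described one by one. The other 8 were Tnfsf15 and Tnfsf12 with 13 UMIs each, Tnfrsf19 with 15, Tnfsf13os with 8, Tnfrsf17 with 5, Tnfsf13 and Tnfrsf13c with 3 each, and Tnfrsf11b at 0. Tnfsf12 and Tnfsf13 are overlapped by Tnfsfm13 on the same strand and by Tnfsf13os on the opposite strand, so their counts are uncertain. Counts depend on transcript length and intronic content in nuclei, so levels are compared between populations and not between genes. The map of CPM values shows the range within each gene.

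**Figure D1:**
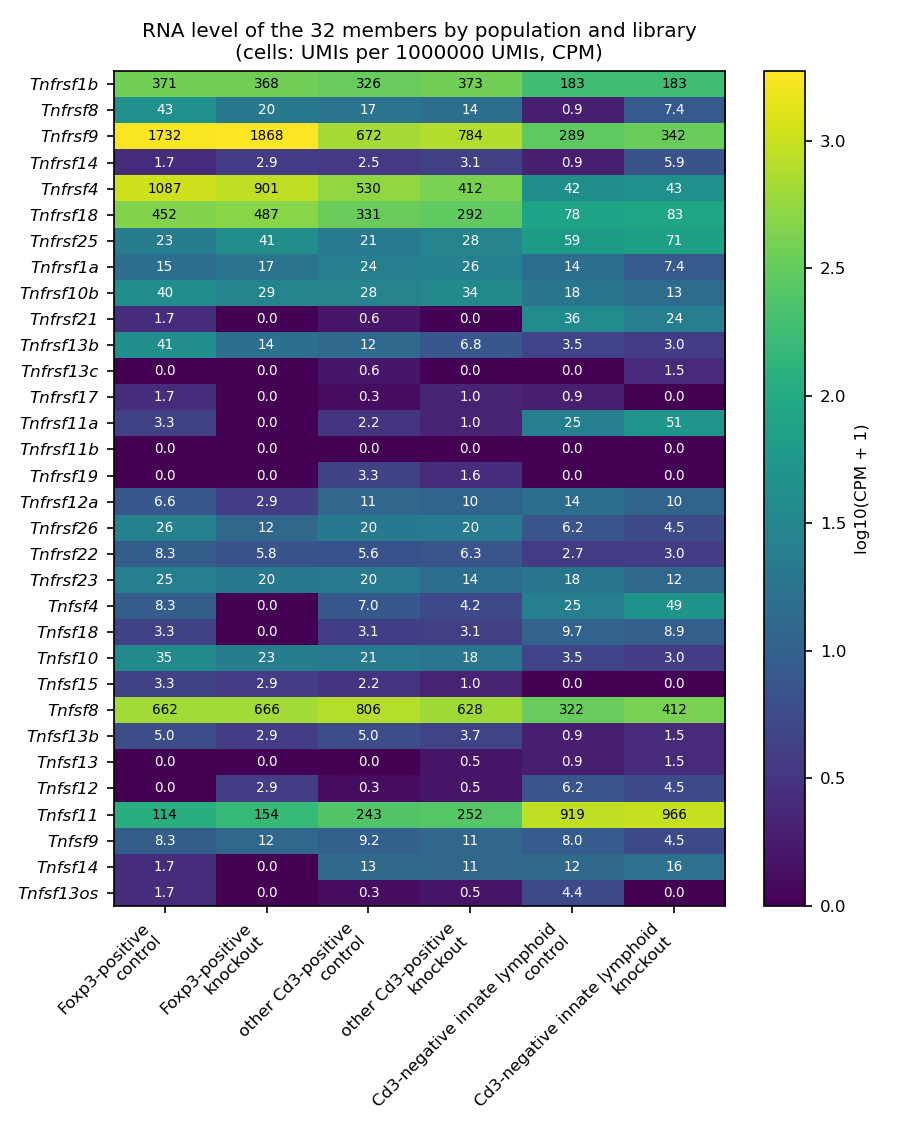
RNA level of each of the 32 superfamily genes (rows, grouped by role) in the 3 populations of the control and the knockout library (columns), as CPM, with colour on a log10(CPM + 1) scale. Tnfrsf9 falls from 1732 CPM in control Foxp3-positive nuclei to 289 in innate nuclei, and Tnfsf11 runs the other way, from 114 to 919.

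A gene was compared between populations where its UMIs in the 2 populations summed to at least 20 in each library, and it was counted where it differed at least 2-fold in the same direction in both libraries. For Foxp3-positive over other Cd3-positive nuclei, 16 superfamily genes could be compared. Tnfrsf9 and Tnfrsf4 were counted as higher, where 1.31% of all 8079 genes compared were, and Tnfsf14 as lower, where 1.37% of all genes were. The median log2 ratio of the 11 receptors compared was 0.43 in control and 0.55 in knockout nuclei, that of the 5 ligands was -0.28 and 0.09, and that of all genes was 0.00 and -0.01. For innate over other Cd3-positive nuclei, 18 genes could be compared. Here 4 were counted as higher (Tnfrsf11a, Tnfsf4, Tnfrsf25 and Tnfsf11), beside 9.84% of all 8686 genes, and 5 as lower (Tnfsf10, Tnfrsf9, Tnfrsf4, Tnfrsf18 and Tnfrsf26), beside 9.45%. Genes with at least 100 UMIs had a median log2 ratio of -0.15 and -0.16 in this comparison, to which each value below may be referred.

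**Figure D2:**
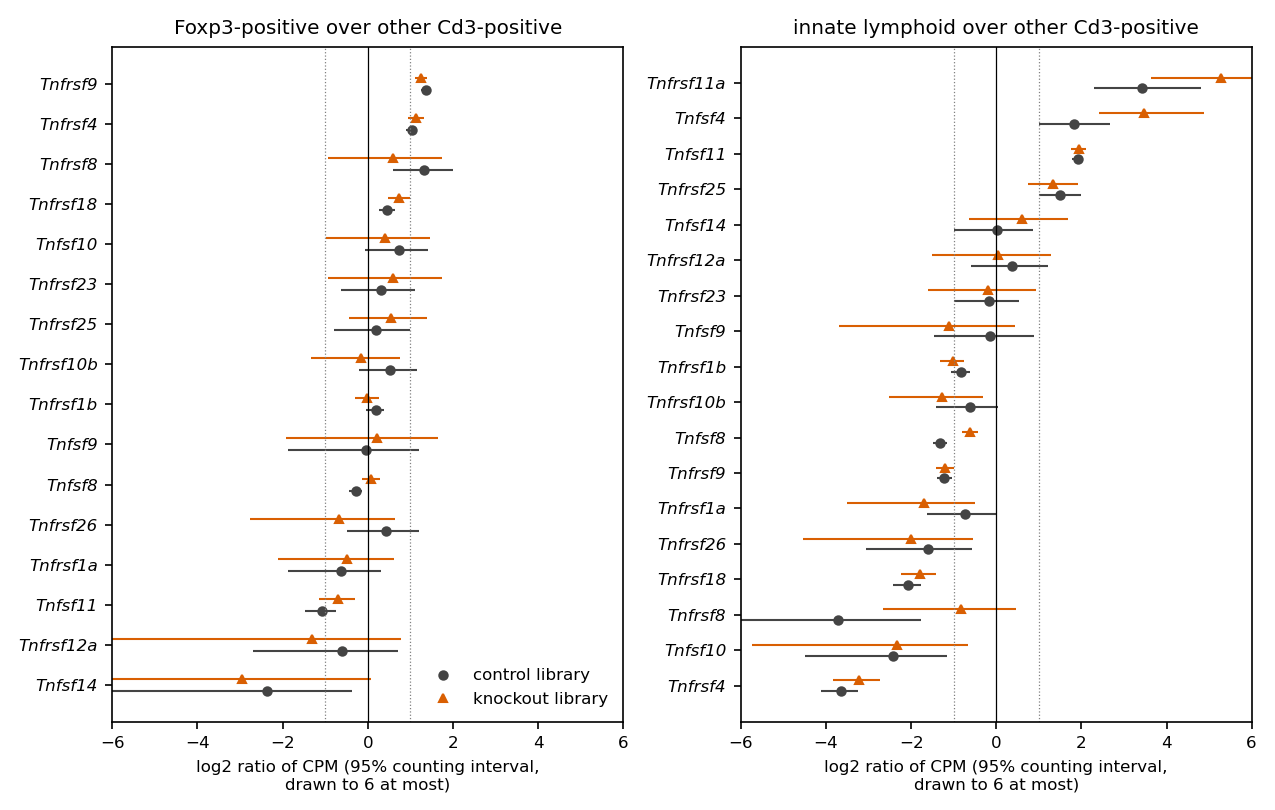
Log2 ratio of CPM for Foxp3-positive (left) and innate lymphoid nuclei (right) over other Cd3-positive nuclei, for each superfamily gene compared; circles are the control and triangles the knockout library, lines are 95% counting intervals and dotted lines mark 2-fold. Tnfrsf9 and Tnfrsf4 lie past 2-fold on the left in both libraries, and Tnfrsf11a, Tnfsf4, Tnfsf11 and Tnfrsf25 on the right.

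Tnfrsf9 encodes 4-1BB, a costimulatory receptor induced on activated T cells (chr4:150914562-150946102, plus strand, mm10). Its level in the control library was 1732 CPM in Foxp3-positive, 672 in other Cd3-positive and 289 in innate nuclei. In the knockout library it was 1868, 784 and 342 CPM. The order was the same in both libraries, and no 2 of the 3 intervals overlapped within a library. The log2 ratio of Foxp3-positive over other Cd3-positive nuclei was 1.37 (1.26 to 1.47) in the control and 1.25 (1.12 to 1.39) in the knockout. For shares at equal depth, nuclei with at least 1000 UMIs were thinned to 1000 and those with fewer were left out. A Tnfrsf9 UMI was then found in 64.3% and 73.5% of Foxp3-positive nuclei, 31.0% and 33.5% of other Cd3-positive nuclei, and 16.9% and 21.3% of innate nuclei. Unthinned and over all nuclei, these shares were 81.5% and 87.3%, 43.5% and 48.5%, and 26.8% and 30.4%.

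Tnfrsf4 encodes OX40, the receptor of Tnfsf4 (chr4:156013843-156016612, plus strand). Control levels were 1087 CPM in Foxp3-positive, 530 in other Cd3-positive and 41.6 in innate nuclei, and knockout levels were 901, 412 and 43.1 CPM. The log2 ratio of Foxp3-positive over other Cd3-positive nuclei was 1.04 (0.91 to 1.16) and 1.13 (0.94 to 1.32). Innate over other Cd3-positive nuclei gave -3.66 (-4.12 to -3.25) and -3.23 (-3.84 to -2.72). In innate nuclei 23.4% of the control UMIs of Tnfrsf4 came from 1 nucleus, and only 18 nuclei in each library had any. At 1000 UMIs per nucleus, 52.5% and 54.1% of Foxp3-positive nuclei had a Tnfrsf4 UMI, against 2.28% and 3.67% of innate nuclei.

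Tnfrsf18 encodes GITR and lies 9.55 kb downstream of Tnfrsf4 (chr4:156026164-156028895, plus strand). It gave 452, 331 and 78.0 CPM in Foxp3-positive, other Cd3-positive and innate nuclei of the control, and 487, 292 and 83.2 CPM in the knockout. Foxp3-positive nuclei were higher by less than 2-fold, with log2 ratios of 0.45 (0.25 to 0.64) and 0.74 (0.48 to 0.99). Innate nuclei were lower at -2.08 (-2.42 to -1.77) and -1.80 (-2.23 to -1.41). Gm16008 overlaps it on the opposite strand, and whether the counting used strand is not given in the sources used here.

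**Figure D3:**
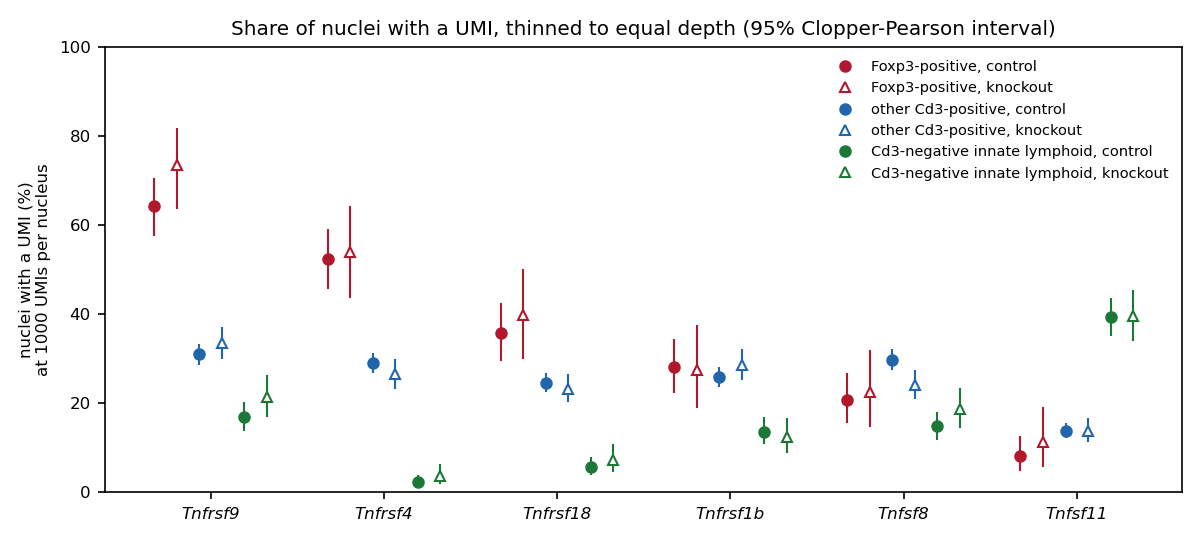
Percentage of nuclei with at least 1 UMI of 6 superfamily genes, by population (colour) and library (filled circles for control, open triangles for knockout), with 95% Clopper-Pearson intervals. Nuclei were thinned to 1000 UMIs, and those with fewer were left out. Tnfrsf9, Tnfrsf4 and Tnfrsf18 are most often detected in Foxp3-positive nuclei, and Tnfsf11 in innate nuclei, where the share is 39.3% and 39.7%.

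Other Cd3-positive nuclei were themselves divided in these receptors. The 415 control nuclei of this population that lay in the Foxp3-rich clusters had 1661 CPM of Tnfrsf9 and 1070 of Tnfrsf4, although they had no Foxp3 UMI. The 1128 in the other T cell clusters had 261 and 306 CPM. In the knockout library, 202 nuclei in the Foxp3-rich clusters had 1777 and 856 CPM, and 497 in the other T cell clusters had 330 and 210. Levels in the first kind were thus close to those of Foxp3-positive nuclei. With populations taken from clusters instead of UMI thresholds, the log2 ratio of Foxp3-rich over other T cell clusters was 2.67 and 2.35 for Tnfrsf9, and 1.83 and 1.98 for Tnfrsf4. By clusters, innate nuclei had nearly the Tnfrsf9 level of the remaining T cells, at log2 ratios of -0.12 and -0.29, so the lower count for Tnfrsf9 in innate nuclei is not held there. With Zbtb46 and Pecam1 dropped from the other-lineage genes, a setting chosen after seeing the data, Tnfrsf9 gave 1.27 and 0.98 and Tnfrsf4 0.95 and 0.82, and neither passed 2-fold in both libraries.

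Among the 20 clusters, cluster 2 had the top level of these receptors in both libraries. It is 1 of the 3 Foxp3-rich clusters, with 528 control and 293 knockout nuclei, and Il1rl1 and Klrg1 are among its leading genes. Tnfrsf9 reached 2260 and 2440 CPM there, Tnfrsf4 1301 and 1160, and Tnfrsf18 623 and 579. In the other Foxp3-rich clusters, 8 and 9, Tnfrsf9 was 1188 and 849 CPM in the control and 820 and 797 in the knockout. Among the innate clusters, cluster 15 (103 and 38 nuclei) stood out for Tnfrsf9 with 769 and 1111 CPM, while clusters 1, 5 and 12 gave 149 to 248.

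Tnfrsf8 encodes CD30, the receptor of Tnfsf8 (chr4:145267137-145315164, minus strand). Its level was 43.0 CPM from 26 UMIs in control Foxp3-positive nuclei, 17.3 in other Cd3-positive and 0.89 (1 UMI) in innate nuclei. Knockout levels were 20.3 (7 UMIs), 14.2 and 7.43 (5 UMIs). By UMI thresholds it passed 2-fold in the control library only, with log2 ratios of 1.33 (0.60 to 2.00) and 0.59 (-0.93 to 1.75). By clusters it was higher in both, at 2.33 and 3.39.

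Tnfrsf1b encodes TNFR2, a TNF receptor without a death domain. Its levels were 371 and 368 CPM in Foxp3-positive, 326 and 373 in other Cd3-positive and 183 and 183 in innate nuclei of the control and knockout. Foxp3-positive and other Cd3-positive nuclei could not be told apart, with log2 ratios of 0.19 (-0.03 to 0.39) and -0.02 (-0.30 to 0.25). Innate nuclei were lower at -0.83 (-1.05 to -0.62) and -1.03 (-1.32 to -0.75), which passed 2-fold in the knockout library only. Tnfrsf14, which encodes HVEM, the receptor of Tnfsf14, had 22 UMIs in all and could not be compared.

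Chromatin at the costimulatory receptors was read from peaks. Levels here are counts in a peak region per 1000000 counts in all regions shared by both libraries (peak CPM). The region over the Tnfrsf4 start (chr4:156013372-156014396) had 26.6 peak CPM in Foxp3-positive, 23.7 in other Cd3-positive and 1.06 in innate nuclei of the control, and 20.0, 19.1 and 0.66 in the knockout. Innate over other Cd3-positive nuclei thus stood at log2 ratios of -4.32 (-6.24 to -2.36) and -4.53 (-10.27 to -2.42), while Foxp3-positive nuclei were at 0.18 and 0.09. A region at -5.33 kb from the start, in an exon of Sdf4 (chr4:156008013-156009023), ran the same way, with 48.7, 31.2 and 3.45 in the control and 40.0, 27.8 and 2.32 in the knockout. At Tnfrsf9 the region over the GENCODE start, which also covers the start of Park7, was open in all 3 populations, with 65.5 to 79.3 peak CPM over both libraries. The next region, 1.11 kb downstream (chr4:150915218-150916134), had 79.9 and 70.2 peak CPM in the 2 Cd3-positive populations of the control and 9.28 in innate nuclei, and 102, 67.5 and 13.3 in the knockout. A region 13.3 kb downstream, in an exon by GENCODE, is also at a RefSeq start of Tnfrsf9 (bases before that start, chr4:150927749-150927998). It had 41.6 and 38.8 peak CPM in innate nuclei, above other Cd3-positive nuclei at 23.3 and 20.0, while the RNA was lowest in innate nuclei.

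At Tnfrsf8 the start region (chr4:145314769-145315785) had 39.0, 30.4 and 3.18 peak CPM in Foxp3-positive, other Cd3-positive and innate nuclei of the control, and 49.96, 24.6 and 2.98 in the knockout. Of the 3 regions near any superfamily gene that were at least 2-fold higher in Foxp3-positive than in other Cd3-positive nuclei in both libraries, 2 are near Tnfrsf8 and the other is near Tnfsf10. One lies in an intron 31.57 kb past the Tnfrsf8 start (25.3 against 9.98 peak CPM in the control, and 15.0 against 6.26 in the knockout) and one at -27.08 kb (24.7 against 7.95, and 17.5 against 8.71). Another intron region, 39.96 kb past the start, ran the other way, at 9.10 against 21.9 and 8.33 against 21.5. None of the 3 higher regions passed 2-fold in both libraries once Zbtb46 and Pecam1 were dropped from the gate.

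The 250 bases before the RefSeq starts (GRCm38.p6) of Tnfrsf4 and Tnfrsf8, both inside the start regions just described, are shown because these promoters were nearly closed in innate nuclei and open in Cd3-positive nuclei. Both run 5′ to 3′ on the gene's strand (Tnfrsf4, chr4:156013445-156013694, plus; Tnfrsf8, chr4:145315165-145315414, minus), and capitals mark a match to any of the 5 motifs searched.
Tnfrsf4: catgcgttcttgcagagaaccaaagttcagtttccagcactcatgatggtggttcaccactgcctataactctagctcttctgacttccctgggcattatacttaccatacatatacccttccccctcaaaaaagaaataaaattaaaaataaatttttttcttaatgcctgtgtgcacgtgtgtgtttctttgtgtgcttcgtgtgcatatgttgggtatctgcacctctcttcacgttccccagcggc
Tnfrsf8: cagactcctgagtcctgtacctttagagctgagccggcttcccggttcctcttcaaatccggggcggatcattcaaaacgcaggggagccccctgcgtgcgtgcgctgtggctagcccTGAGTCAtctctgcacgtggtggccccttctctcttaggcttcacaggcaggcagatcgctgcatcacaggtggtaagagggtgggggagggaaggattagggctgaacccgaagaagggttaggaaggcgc
The motifs were TGANTCA (AP-1), a kappaB-like motif, TGTGGT (RUNX), GTAAACA (forkhead) and AGGTCA (ROR), sought on both strands. Tnfrsf8 has 1 match, to the AP-1 motif, beginning 132 bases before the start, and none of the 5 occurs in the 250 bases of Tnfrsf4. Over 32851 RefSeq promoters, these letters occurred in 6.75% for AP-1, 1.41% for kappaB-like, 14.1% for RUNX, 3.17% for forkhead and 14.0% for ROR. In 28 promoter entries that matched 24 of the superfamily genes, they occurred in 5, 2, 3, 0 and 2 entries. The second Tnfrsf9 start, at the exon region described above, had both a kappaB-like match 43 bases and an AP-1 match 15 bases before it. A match describes letters and not a bound site.

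**Figure D4:**
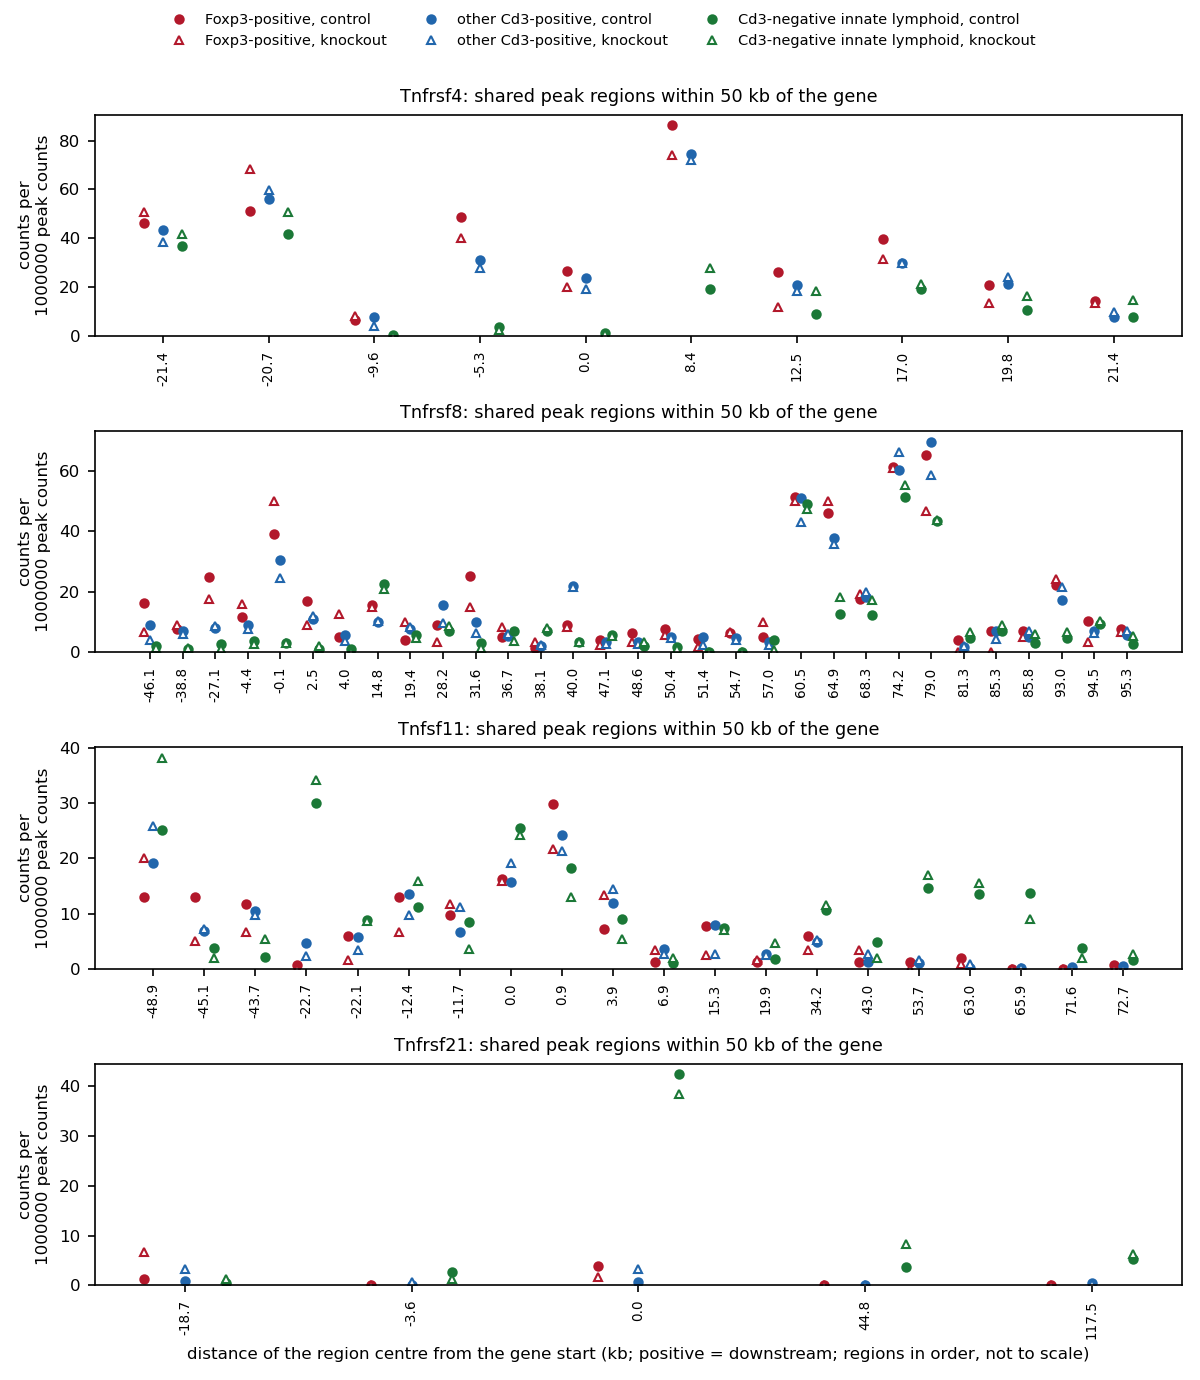
Peak CPM for each region within 50 kb of Tnfrsf4, Tnfrsf8, Tnfsf11 and Tnfrsf21, against the distance of the region's centre from the gene start in kb, in order and not to scale. Colours are populations, filled circles the control and open triangles the knockout library; innate nuclei sit near 0 at the Tnfrsf4 and Tnfrsf8 starts and alone are high at the Tnfrsf21 start and at -22.73 kb from the Tnfsf11 start.

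Among the ligands, Tnfsf11 and Tnfsf8 had the most counts. Tnfsf11 encodes RANKL, the ligand of RANK (chr14:78277445-78308043, minus strand). It gave 114 CPM in Foxp3-positive, 243 in other Cd3-positive and 919 in innate nuclei of the control, and 154, 252 and 966 in the knockout. The intervals of the 3 populations did not overlap within either library, and innate over other Cd3-positive nuclei stood at log2 ratios of 1.92 (1.79 to 2.05) and 1.94 (1.77 to 2.11). Foxp3-positive nuclei were lower than other Cd3-positive nuclei at -1.08 (-1.47 to -0.74) and -0.70 (-1.15 to -0.30). In nuclei with at least 2 Foxp3 UMIs, this value was -1.64 in the control but 0.17 in the knockout, where 22.6% of the Tnfsf11 UMIs of Foxp3-positive nuclei came from 1 nucleus.

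Tnfsf11 also differed among innate clusters. It was 1709 and 1820 CPM in cluster 15, 1268 and 1471 in cluster 5, 796 and 847 in cluster 1, and 592 and 472 in cluster 12, where Ncr1 and Klrb1c are among the leading genes. Among Cd3-positive clusters it was 511 and 528 CPM in cluster 10, whose leading genes include Il5 and Il17rb, and 453 and 565 in cluster 6, which includes Il17a. In the Foxp3-rich cluster 2 Tnfsf11 was 84.3 and 95.2 CPM.

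The region at the start had 16.2, 15.7 and 25.4 peak CPM in Foxp3-positive, other Cd3-positive and innate nuclei of the control, and 15.8, 19.1 and 24.2 in the knockout. The intergenic region at -22.73 kb (chr14:78330402-78331150) had 0.65, 4.58 and 30.0 in the control and 0, 2.29 and 34.1 in the knockout, at innate over other Cd3-positive log2 ratios of 2.70 (1.94 to 3.40) and 3.86 (2.54 to 4.67). Past the gene's other end, regions 53.74 and 62.98 kb from the start had 14.6 and 13.5 peak CPM in control innate nuclei, 16.9 and 15.6 in knockout innate nuclei, and at most 1.95 in either Cd3-positive population of either library.

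Tnfsf8 encodes the CD30 ligand (chr4:63831308-63861347, minus strand). Its control levels were 662, 806 and 322 CPM in Foxp3-positive, other Cd3-positive and innate nuclei, and its knockout levels were 666, 628 and 412 CPM. In the control Foxp3-positive population 15.8% of the UMIs came from 1 nucleus, and in the knockout 17.4%. Innate nuclei were below other Cd3-positive nuclei at log2 ratios of -1.32 (-1.49 to -1.17) and -0.61 (-0.80 to -0.42), past 2-fold in the control only. By cluster, its top level was in cluster 7, with 1979 and 1717 CPM, where Sostdc1, Ntrk3 and Il6ra are among the leading genes. Cluster 10 followed in the control with 1090 CPM, and cluster 8 in the knockout with 1251. Around Tnfsf8, an intron region 7.35 kb past the start was open mainly in innate nuclei (24.4 against 7.95 peak CPM in other Cd3-positive nuclei of the control, and 25.2 against 5.04 in the knockout), although their RNA level was the lowest of the 3. A region 1.46 kb past the start was lower in Foxp3-positive nuclei, at 2.60 against 10.9 and 1.67 against 8.40.

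Tnfsf4 encodes the OX40 ligand (chr1:161395409-161418410, plus strand). It had 28 UMIs (24.8 CPM) in innate nuclei of the control and 33 (49.0 CPM) in the knockout. Other Cd3-positive nuclei had 6.97 and 4.20 CPM, and Foxp3-positive nuclei had 5 UMIs and 0. The log2 ratio of innate over other Cd3-positive nuclei was 1.83 (1.00 to 2.67) and 3.48 (2.40 to 4.87). The ligand was thus higher in the nuclei in which its receptor Tnfrsf4 was lowest. Among innate clusters Tnfsf4 was 74.5 and 76.9 CPM in cluster 5, and a small cluster apart from them, led by Dcstamp, Siglecg and H2-Ab1, had 138 and 101 CPM. Of that cluster's 90 control and 56 knockout nuclei, 43 belong to the innate population. By clusters, which leave it out, Tnfsf4 stood at log2 ratios of 2.295 and 3.971 in innate over other Cd3-positive nuclei. Of 5 dendritic cell markers, Zbtb46 and Flt3 are among the other-lineage genes. Every nucleus of the 3 populations has under 2 UMIs of the other-lineage genes, so the gate itself limits both levels. Zbtb46 gave 144 and 132 CPM in innate nuclei and 20.4 and 15.2 in other Cd3-positive nuclei. Xcr1 ran the other way, at 1.77 and 1.49 against 8.64 and 16.3 CPM, and Flt3, Itgax and Ciita had 0 to 5 UMIs each; their part in the Tnfsf4 level was not tested.

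Tnfsf14 encodes LIGHT. It had 1 UMI in Foxp3-positive nuclei of the control and none in the knockout, against 45 and 21 UMIs in other Cd3-positive nuclei (12.5 and 11.0 CPM) and 14 and 11 in innate nuclei (12.4 and 16.3 CPM). The control ratio was -2.35 on the log2 scale with an interval from -8.26 to -0.37. In the knockout the interval reached 0.08 and so includes no difference. With nuclei thinned to 1000 UMIs and divided anew, which left 110 and 39 Foxp3-positive nuclei, the knockout ratio of Tnfsf14 was 0.29. Tnfsf10 encodes TRAIL, a ligand of death receptors. It was 34.7, 21.2 and 3.54 CPM in the control and 23.2, 18.4 and 2.97 in the knockout, from 4 and 2 UMIs in innate nuclei. Innate nuclei were lower at -2.42 (-4.49 to -1.17) and -2.33 (-5.73 to -0.67), and 3 intron regions inside Tnfsf10 were also lower there, while the region at its start had 28.6 peak CPM in innate and 28.1 in other Cd3-positive nuclei of the control, and 20.2 and 29.2 in the knockout. Tnfsf9, the 4-1BB ligand, had 3 to 33 UMIs per population, with both ratios' intervals including no difference in both libraries. Tnfsf18, the GITR ligand, had 11 and 6 UMIs in innate nuclei (9.74 and 8.92 CPM) and 11 and 6 in other Cd3-positive nuclei (3.07 and 3.15 CPM), and was too sparse to compare. Tnfsf13b encodes BAFF, a B cell survival factor, and gave 1 UMI in innate nuclei of each library and 18 and 7 in other Cd3-positive nuclei. The region over its start was 14.7 against 1.59 peak CPM in other Cd3-positive and innate nuclei of the control, and 16.3 against 2.65 in the knockout.

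Tnfrsf11a and Tnfrsf21 were the receptors found mainly in innate nuclei. Tnfrsf11a encodes RANK, the receptor of RANKL (chr1:105780718-105847981, plus strand). Innate nuclei had 28 and 34 UMIs (24.8 and 50.5 CPM), other Cd3-positive nuclei 8 and 2 (2.23 and 1.05 CPM), and Foxp3-positive nuclei 2 and 0. The log2 ratio of innate over other Cd3-positive nuclei was 3.41 (2.30 to 4.82) and 5.29 (3.62 to 8.69). Receptor and ligand were thus both higher in the innate population. Of the Cd3-positive clusters, cluster 10 had 27.3 and 30.2 CPM of Tnfrsf11a, beside 54.2 and 59.3 in innate cluster 1. The region over the Tnfrsf11a start (chr1:105780192-105781108) had 31.3 peak CPM in innate and 11.1 in other Cd3-positive nuclei of the control, and 34.8 and 12.1 in the knockout.

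Tnfrsf21 encodes DR6, a death domain receptor (chr17:43016555-43089189, plus strand). Innate nuclei had 41 UMIs (36.3 CPM, 26.1 to 49.3) in the control and 16 (23.8 CPM, 13.6 to 38.6) in the knockout, against 2 and 0 UMIs in the far larger other Cd3-positive populations and 1 and 0 in Foxp3-positive nuclei. The log2 ratio of innate over other Cd3-positive nuclei was 5.72 (4.08 to 9.12) in the control, and in the knockout its lower limit was 3.45. It fell short of the 20 UMIs needed in the knockout library and is not in the counts above. Its start region (chr17:43016108-43017018) had 42.4 peak CPM in innate and 0.61 in other Cd3-positive nuclei of the control, and 38.5 and 3.36 in the knockout, at log2 ratios of 6.01 (4.59 to 8.49) and 3.49 (2.63 to 4.64). The 250 bases before the RefSeq starts of both genes lie in these regions, which were open mainly in innate nuclei, and are shown beside those of Tnfrsf4 and Tnfrsf8 for that contrast (Tnfrsf21, chr17:43016305-43016554, plus; Tnfrsf11a, chr1:105780473-105780722, plus). Neither holds a match to the 5 motifs, so neither has capitals.
Tnfrsf21: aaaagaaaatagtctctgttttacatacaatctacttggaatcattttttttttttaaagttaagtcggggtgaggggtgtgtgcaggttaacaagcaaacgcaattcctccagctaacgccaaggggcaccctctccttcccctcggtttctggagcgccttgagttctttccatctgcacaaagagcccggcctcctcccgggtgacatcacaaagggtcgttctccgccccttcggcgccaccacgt
Tnfrsf11a: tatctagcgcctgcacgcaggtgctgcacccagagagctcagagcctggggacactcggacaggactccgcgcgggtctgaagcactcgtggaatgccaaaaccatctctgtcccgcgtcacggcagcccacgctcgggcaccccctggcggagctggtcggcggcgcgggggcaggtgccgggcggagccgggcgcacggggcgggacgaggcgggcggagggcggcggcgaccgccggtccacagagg

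Of the other death domain receptors, Tnfrsf25 encodes DR3, the receptor of Tnfsf15. It was 23.2, 20.9 and 59.4 CPM in Foxp3-positive, other Cd3-positive and innate nuclei of the control, and 40.6, 28.3 and 71.3 in the knockout. Innate nuclei were higher at log2 ratios of 1.51 (1.01 to 2.00) and 1.33 (0.74 to 1.92). The region over its start was open alike in all populations (27.4 to 46.6 peak CPM), while one at -3.79 kb, in an exon of Plekhg5, had 16.7 and 17.9 peak CPM in innate nuclei and 0.71 and 0.92 in other Cd3-positive nuclei. Tnfrsf1a, which encodes TNFR1, was 14.9, 24.0 and 14.2 CPM in the control and 17.4, 26.2 and 7.43 in the knockout, and passed 2-fold in neither comparison in both libraries. Tnfrsf10b, the mouse TRAIL receptor, was 39.7, 27.9 and 17.7 CPM and then 29.0, 33.6 and 13.4, with innate nuclei lowest in both libraries and past 2-fold in the knockout only.

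Receptors of B cell survival factors were sparse. Tnfrsf13b encodes TACI and had 25 and 5 UMIs in Foxp3-positive nuclei (41.4 and 14.5 CPM), 44 and 13 in other Cd3-positive nuclei (12.3 and 6.82 CPM), and 4 and 2 in innate nuclei. In the control library alone, where it could be compared, it was above other Cd3-positive nuclei without overlap of the intervals (26.8 to 61.1 against 8.92 to 16.5 CPM). The region over its start was 11.0 against 2.65 peak CPM in Foxp3-positive and other Cd3-positive nuclei of the control, and 9.16 against 3.82 in the knockout, on too few fragments to be counted. Of the decoy and short receptors, Tnfrsf26 was 26.5, 20.1 and 6.20 CPM in the control and 11.6, 20.5 and 4.46 in the knockout, and innate nuclei were lower at -1.61 (-3.06 to -0.58) and -2.00 (-4.54 to -0.55). Tnfrsf23 was 24.8, 20.4 and 17.7 CPM and then 20.3, 14.2 and 11.9, with intervals that include no difference in both comparisons. Tnfrsf22 had 2 to 20 UMIs per population. These 3 neighbours on chromosome 7 resemble each other and are overlapped on the opposite strand by E230032D23Rik, so their counts are uncertain. Tnfrsf12a, the receptor of Tnfsf12, was 6.62, 11.2 and 14.2 CPM and then 2.90, 10.5 and 10.4, with intervals that include no difference in both comparisons.

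Within a fixed list of 32 other genes of the pathway (ligands and receptors named otherwise, TRAFs, and NF-κB and caspase components), 27 could be compared between Foxp3-positive and other Cd3-positive nuclei. None was at least 2-fold higher in both libraries, beside 1.31% of all genes, and 2 were lower, beside 1.37%. Fasl, a death ligand, gave 41.4 against 146 CPM in the control and 43.4 against 129 in the knockout. Cd40lg, the helper ligand of CD40, gave 119 against 372 and 119 against 426 CPM. The median log2 ratio of the list was 0.08 and 0.06. Between innate and other Cd3-positive nuclei 29 could be compared, with 3 higher (10.3%, near the 9.84% of all genes) and 5 lower (17.2%, beside 9.45%). Cd40 was 23.9 against 0.56 and 32.7 against 1.57 CPM. The lymphotoxin genes were also higher, Lta at 41.6 against 6.97 and 47.5 against 8.92, and Ltb at 377 against 144 and 325 against 129 CPM. Those lower were Cd40lg (17.7 against 372, and 31.2 against 426), Fasl (7.97 against 146, and 17.8 against 129) and Traf5 (5.32 against 46.8, and 5.94 against 63.5), with Fas and Cd27, which are named after their values were seen. The list's median was 0.06 and 0.30 beside -0.10 and -0.11 for all genes.

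The question of what loss of Zfp362 does was put by comparing the libraries within each population, which compares 2 libraries and not the genotypes. In Foxp3-positive nuclei 13 superfamily genes had at least 20 UMIs over both libraries. None was at least 2-fold higher in the knockout, beside 2.64% of all 5768 genes, and 3 were lower, beside 4.13%. They were Tnfrsf13b (5 against 25 UMIs; log2 ratio -1.41, -3.26 to -0.10), Tnfrsf26 (4 against 16 UMIs; -1.07, -3.23 to 0.44) and Tnfrsf8 (7 against 26 UMIs; -1.01, -2.53 to 0.16). The last 2 intervals include no difference, by clusters none of the 3 passed 2-fold, and Tnfrsf8 was then at 0.045. The abundant receptors stayed close, with log2 ratios of 0.11 (-0.03 to 0.25) for Tnfrsf9, 0.11 (-0.18 to 0.39) for Tnfrsf18 and -0.27 (-0.47 to -0.07) for Tnfrsf4.

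In other Cd3-positive nuclei 20 genes could be compared, and 0 passed 2-fold in either direction, beside 1.63% of all 10218 genes higher and 1.89% lower. The log2 ratios ran from -0.81 to 0.44. The interval lay below no difference for Tnfsf8 (-0.36, -0.46 to -0.26), Tnfrsf4 (-0.36, -0.49 to -0.24) and Tnfrsf18 (-0.18, -0.33 to -0.04), and above it for Tnfrsf9 (0.22, 0.13 to 0.32) and Tnfrsf1b (0.19, 0.06 to 0.33). Within this population Tnfsf8 was lower in the knockout in the other T cell clusters (579 against 901 CPM) and higher in the Foxp3-rich clusters (707 against 593 CPM). Cluster 7, where Tnfsf8 was highest, held 297 control and 75 knockout nuclei; its part in the Tnfsf8 ratio was not tested.

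In innate nuclei 15 genes could be compared. Tnfrsf11a alone was at least 2-fold higher in the knockout, at 1.02 (0.26 to 1.80), beside 2.24% of all 7673 genes, and none was lower, beside 2.75%. Tnfsf4 was just under 2-fold at 0.98 (0.21 to 1.76), and Tnfsf8 was at 0.36 (0.13 to 0.59). By clusters, Tnfrsf11a was at 0.20, with nuclei thinned and divided anew it was at -0.436, and without Zbtb46 and Pecam1 in the gate Tnfsf4 was at 0.06. Tnfsf11 was close in both libraries at 0.07 (-0.07 to 0.22). In the pathway list, 25, 28 and 27 genes could be compared in Foxp3-positive, other Cd3-positive and innate nuclei, and none of the 28 passed 2-fold. Fas was lower in the knockout in Foxp3-positive nuclei (11 against 43 UMIs, 31.9 against 71.1 CPM) and in innate nuclei (6 against 22 UMIs). Tnf was higher in Foxp3-positive nuclei (19 against 16 UMIs, 55.0 against 26.5 CPM) and Fasl in innate nuclei (12 against 9 UMIs). These values of Fas, Tnf and Fasl rest on few UMIs and are given without intervals, so counting error is not judged for them. The libraries differ in total UMIs, so raw counts are not to scale. In Foxp3-positive nuclei 4.0% were higher and 4.0% lower, beside 2.64% and 4.13% of all genes. In innate nuclei 3.70% were higher and 3.70% lower, beside 2.24% and 2.75%. Each share is 1 gene and no result about the list.

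**Figure D5:**
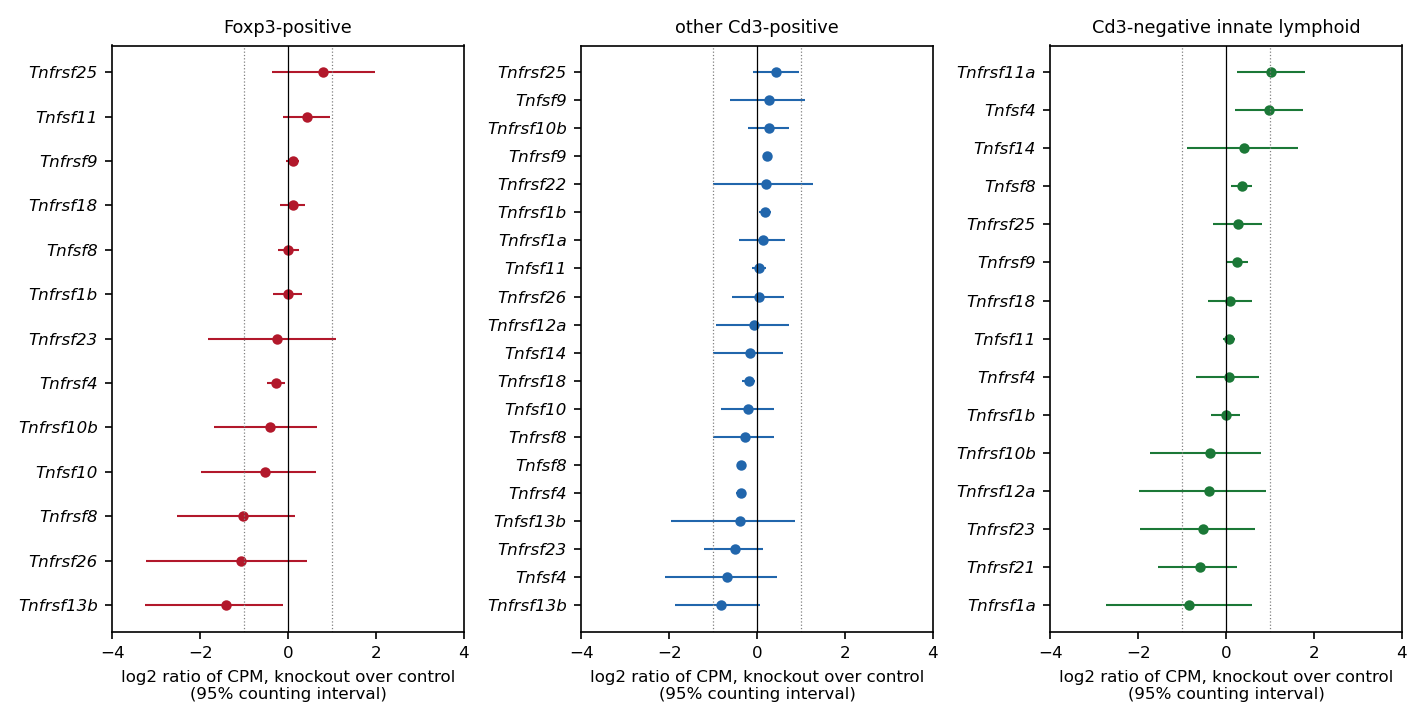
Log2 ratio of CPM in the knockout over the control library for each superfamily gene with at least 20 UMIs, in each population, with 95% counting intervals and dotted lines at 2-fold. Most intervals cross 0, and Tnfrsf11a at 1.02 in innate nuclei is the only value past 2-fold on the higher side.

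Over all 32 genes, 301 of 73219 shared peak regions lay within 50 kb of a gene body. Of these, 78 were at a promoter, 77 in an intron, 49 in an exon and 97 between genes, and 28 of the 32 genes had one over their own promoter. Of 187 regions that could be compared, 3 (1.60%) were at least 2-fold higher in Foxp3-positive than in other Cd3-positive nuclei in both libraries, beside 1.19% of all regions, and 5 (2.67%) were lower, beside 1.99%. Of 216 compared for innate nuclei, 22 (10.2%) were higher, beside 13.6% of all regions, and 32 (14.8%) were lower, beside 13.5%. These shares within 50 kb lie near those of all regions and are no result about the superfamily. Of the 32 genes, 9 lie on chromosome 4, and neighbours share regions: all 10 regions of Tnfrsf4 are also within reach of Tnfrsf18, and Tnfrsf8 and Tnfrsf1b share 23. Between the libraries, the region over the Tnfrsf18 start was lower in the knockout in Foxp3-positive nuclei (26.0 to 11.7 peak CPM; log2 ratio -1.12, -2.64 to 0.14) and higher in innate nuclei (8.75 to 18.2; 1.05, 0.12 to 2.01), while Tnfrsf18 RNA differed little in either. In Foxp3-positive nuclei this was the 1 region of 89 lower, and 0 were higher, beside 2.91% and 2.17% of all regions; in other Cd3-positive nuclei 2 of 249 were higher and 8 lower, beside 2.32% and 2.07%, and in innate nuclei 6 of 162 were higher and 2 lower, beside 2.26% and 2.61%.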

How the data were processed

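Nuclear RNA and chromatin accessibility were measured jointly (10x Multiome) in 1 control and 1 knockout library. The authors deposited raw counts per barcode, UMI counts for genes and counts for peaks, made with Cell Ranger ARC 2.0.1 on mm10, per the submitters' processing notes. Peaks were called separately in each library, as their rows differ, and 91.7% and 90.7% of peak counts were even, so intervals for peaks used fragments, each count divided by 2 and rounded up. Kept nuclei had no fewer than 500 UMIs and 300 genes, and no more than 10% of UMIs from mitochondrial genes. No doublet caller was run; nuclei with Cd3 UMIs and at least 2 innate UMIs were left out.

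Counts were summed per population and library and scaled to CPM. Log2 ratios used a pseudocount of 0.5 UMI, with exact conditional intervals that carry no pseudocount; Poisson intervals were used for levels and Clopper-Pearson intervals for shares. Peaks overlapping by at least 1 base between libraries were merged into shared regions (87.7% of control and 85.8% of knockout peaks), and a promoter is within 1000 bp of a start. A minimum of 20 in sum also applied to regions, on fragments. Leiden clusters (resolution 1.0) were built from 15 neighbours on 30 components of the 2000 most variable genes (leidenalg 0.10.2, igraph 0.11.9, scikit-learn 1.9.0; Python 3.11.15, scipy 1.17.1), without the superfamily genes. Deep clusters and 1 of other lineage were left out of cluster populations. Gene positions are from GENCODE vM21, which held 32235 of the 32285 gene rows; promoter sequences are from RefSeq, GRCm38.p6. Any member could be named, and of the pathway list up to 3 genes at either end of each ratio. The members, lists and thresholds were chosen with earlier results of these data known. The ratio computations were tested on simulated data. Alternatives changed the gates, clusters, depth, scaling, minimum counts, pseudocount and peak distance.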

Additional observations from a re-analysis of the deposited data

Results flagged for a closer look

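Tnfsf8 moved in opposite directions between the libraries in 2 populations. Its log2 ratio of knockout over control was -0.36 in other Cd3-positive nuclei and 0.36 in Cd3-negative innate lymphoid nuclei, with counting intervals on opposite sides of no difference. The difference between the populations was not tested, since each population has 1 library per genotype. Within other Cd3-positive nuclei, the Foxp3-rich clusters had 593 (control) and 707 CPM (knockout) of Tnfsf8, and the other T cell clusters 901 and 579.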

How the results depend on the processing

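Of 1345 single values recomputed over the alternatives, 1252 stayed within their counting interval, 89 moved out of it and 4 that had passed 2-fold changed sign. The last were Tnfrsf8 in knockout over control Foxp3-positive nuclei by clusters (0.045), Tnfrsf26 there with at least 2 Foxp3 UMIs (0.109), Tnfsf14 in Foxp3-positive over other Cd3-positive knockout nuclei when thinned (0.29), and Tnfrsf11a in knockout over control innate nuclei when thinned (-0.436). The cause was not tested. The total is no measure of stability, because some settings could not move a ratio. Minimum counts of 1 and 50 UMIs per gene left all 116 and 69 values unchanged. Requiring at least 2 Foxp3 UMIs could move only ratios that include Foxp3-positive nuclei. By clusters 89 values stayed, 26 moved and 1 changed sign, and when thinned 92, 22 and 2 did. The shares of all genes past 2-fold were not computed under the alternatives. The counts of genes that follow are thus no result about the superfamily. By clusters, 4 of 17 genes were higher in Foxp3-positive nuclei (Tnfrsf8, Tnfrsf9, Tnfrsf4 and Tnfrsf13b). Between the libraries 0 of 18 were lower in Foxp3-positive nuclei, 2 of 22 (Tnfsf4 and Tnfrsf8) lower in other Cd3-positive nuclei and 0 of 17 higher in innate nuclei. With at least 2 Foxp3 UMIs, 1 of 6 genes compared in Foxp3-positive nuclei (Tnfsf11) was higher and 0 lower in the knockout. Without nuclei over 2 times the median UMIs, 1 was lower in knockout Foxp3-positive nuclei and 0 higher in knockout innate nuclei; when thinned, both counts were 0; with a pseudocount of 1 UMI, the first was 1. With at least 50 UMIs per gene, fewer genes could be compared. Of 9, 0 were lower in Foxp3-positive nuclei, and of 9, 2 were higher and 3 lower in innate nuclei. In the knockout Foxp3-positive nuclei 0 of 6 were lower. With at least 1 UMI, 8 of 31 were higher in innate nuclei. Knockout over control gave 1 higher and 6 lower of 28 in Foxp3-positive nuclei. It gave 2 and 2 of 31 in other Cd3-positive, and 4 and 1 of 29 in innate nuclei. With mean CPM of single nuclei, 2 were lower in Foxp3-positive nuclei. With mixed nuclei counted as Cd3-positive, 4 of 17 were higher and 0 lower in Foxp3-positive nuclei, and 1 of 13 was lower in the knockout there. Without Zbtb46 and Pecam1 in the other-lineage list, an alternative chosen after seeing the data, 0 genes and 0% of nearby regions were higher in Foxp3-positive nuclei in both libraries, and 0 genes were higher in knockout innate nuclei. Within 10 kb, 22.124% of the 113 nearby regions compared were lower in innate nuclei, beside 13.5% of all regions. That difference was not tested. No paired analysis was possible because each genotype has 1 library. For the same reason no replicate could be left out. Depth limits the sparse members: 8 of 32 had under 20 UMIs, and among these Tnfsf12 and Tnfsf13 also overlap other genes. Thinning left out nuclei with fewer than 1000 UMIs. For the ratios, thinned nuclei were divided into populations anew, so depth and membership changed together there.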

Other observations

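Outside the 3 populations, a small cluster of 14 control and 12 knockout nuclei carried plasma cell markers (Jchain, Sdc1, Mzb1 and Derl3). It held 14 and 11 UMIs of Tnfrsf17, which encodes BCMA, the receptor that long-lived plasma cells depend on, or 177 and 131 CPM, where the 3 populations together had 5 UMIs. Tnfrsf17 is itself on the list of plasma cell markers. Tnfrsf13b, which encodes TACI, gave 177 and 143 CPM in the same cluster, and Tnfrsf13c, which encodes the BAFF receptor, gave 0 and 1 UMI. With so few nuclei these are values only.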
